A study of Mus musculus with 8 samples.

Results

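The heat shock and DNAJ chaperone genes of the mouse were followed in mature eggs. They are the protein-coding genes whose GENCODE M21 symbol begins with Hsp, Hspa, Hspb, Hspd, Hspe, Hsph, Dnaja, Dnajb or Dnajc followed by a number, together with the heat shock factors Hsf1 and Hsf2. Of 74 such genes in M21, 65 stood among the 24860 genes of the deposited values, and the other 9 were not analysed here. Places were assigned by hand from general knowledge of the proteins. On that basis 40 were placed in the cytosol or nucleus, 13 in the endoplasmic reticulum (ER) and 8 in the mitochondrion, and 4 were left unassigned. The rule reads gene names.

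RNA was measured in oocytes arrested at metaphase of the second meiotic division (MII eggs) from 6-week-old C57BL/6 females, labelled postnatal day 42. One group carried the genotype Esrp1-/- (Esrp1_KO) and the other was wild type (WT). ESRP1 is an RNA-binding splicing regulator of epithelial cells, and the comparison asks which egg transcripts differ where its gene is lost. Each group had 4 libraries, each made with Smart-seq2 from a tube of 15 eggs, and no label ties a tube to 1 animal; the tests therefore use tube-to-tube spread. The labels give neither the construction of the allele nor the cells in which it was lost. Since eggs were pooled, fewer eggs with a transcript and less of it in each egg cannot be told apart.

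Chaperones bind proteins that have not reached, or have lost, their fold. HSP70 proteins bind and release stretches of unfolded chain in a cycle driven by ATP. J proteins, the products of the Dnaj genes, hand over the client and start ATP hydrolysis, and nucleotide exchange factors, the HSP110 proteins among them, remove the ADP. HSP90 proteins act later on selected clients, and chaperonins enclose a chain in a barrel. In stressed cells HSF1 switches on cytosolic heat shock genes, while the unfolded protein response raises the ER chaperones. The fully grown egg transcribes little and draws on mRNA stored during growth.

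Values are FPKM, reads scaled to exon length and to the library total, and fold changes are Esrp1_KO over WT on log2(FPKM + 1), which understates the change of low genes. Positions are those of M21 on GRCm38. The libraries rested on 24910433 to 32337966 reads. Esrp1 stood at 3.62, 3.43, 2.31 and 3.83 FPKM in Esrp1_KO replicates 1 to 4, against 17.1, 17.2, 19.5 and 16.2 FPKM in WT replicates 1 to 4, so every library matched its label. All 12 egg markers examined were present, with sums of 20062 to 27420.4 FPKM in Esrp1_KO and 16385 to 20875 FPKM in WT. Of 12 cumulus and granulosa markers 10 were listed, with sums of 1.85 to 2.92 FPKM in Esrp1_KO and 5.71 to 7.29 FPKM in WT. Cyp19a1 had the highest level of that list in every library, and the defining markers Foxl2 and Fshr were at or near 0 in every library. Sums of the blood list lay between 0.636 and 9.03 FPKM in Esrp1_KO and between 0.367 and 1.49 FPKM in WT. The highest was Esrp1_KO replicate 3, with Lyz2 at 5.44 FPKM and Cd68 at 3.50 FPKM, and the other Esrp1_KO libraries reached at most 1.27 FPKM. Sums of the stromal list lay between 4.75 and 7.01 FPKM in Esrp1_KO and between 4.11 and 5.13 FPKM in WT. Pecam1 made up nearly all of each, at 4.62 to 6.92 FPKM in Esrp1_KO and 3.96 to 4.97 FPKM in WT. A list of genes of the 2-cell embryo summed to 216 to 481 FPKM in Esrp1_KO and 343 to 541 FPKM in WT. Only 5 of its 19 genes averaged at least 1 FPKM. Klf17 made up most of each sum, at 124 to 395 FPKM in Esrp1_KO and 226 to 452 FPKM in WT. WT replicate 1 had the highest sum of that list and the most genes above 0, 20047 against 15201 to 18100 in the other 7 libraries. The part of these lists in the results was not tested.

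The chaperones did not move as 1 group. Of the 65 genes 42 reached a mean of 1 FPKM and were tested, and 18 of these (42.9%) passed an adjusted p of 0.05 (limma, Benjamini-Hochberg over all 8021 genes tested), where 36.9% of all tested genes passed. They divided into 6 that were higher in Esrp1_KO, beside a background of 13.9%, and 12 that were lower, beside 23.1%. In 15 of the 42 the libraries of the groups did not overlap, as in 36.8% of all tested genes. These shares are near the background, so the counts are a description of the 42 genes. The higher genes were the ER genes Hsp90b1 and Dnajb11, the mitochondrial Hspd1, and the cytosolic Hsph1, Dnajc5b and Dnajc9. The lower genes were the cytosolic Dnajb1, Dnajb4, Hspa4, Hspa4l, Dnajc5, Dnajc7 and Dnajc13, the ER genes Hspa5, Dnajc10 and Dnajc14, and the mitochondrial Dnajc11 and Dnajc15. The median log2 fold change was 0.06 over the 42 genes and -0.06 over all genes tested. Scaling the libraries by the trimmed mean of M-values (TMM) moved these medians to 0.20 and 0.07, and of the genes past the threshold it left 47.1% of the chaperones and 46.8% of all genes on the lower side, against 66.7% and 62.5% without it. Without WT replicate 1 the fit called 5 chaperones higher and 8 lower.

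**Figure D1:**
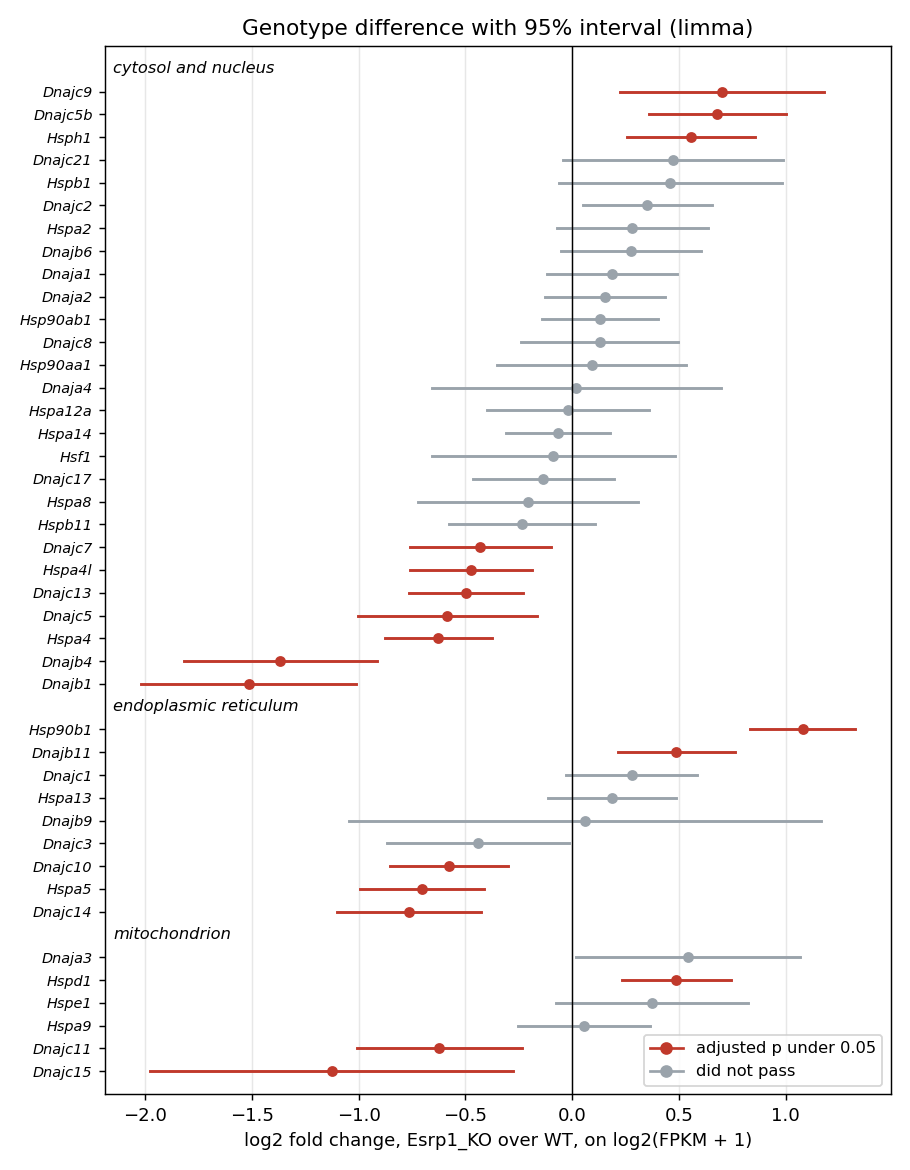
Log2 fold change of the 42 tested chaperone genes, Esrp1_KO over WT on log2(FPKM + 1), on the x axis, with 1 gene per line, by compartment; points are estimates, bars their 95% intervals from limma, and red marks an adjusted p under 0.05. Each compartment holds genes on both sides of 0, from Hsp90b1 at 1.08 to Dnajb1 at -1.52.

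By family, HSP90 had 1 higher of 3 tested, HSP70 with HSP110 had 1 higher and 3 lower of 10, and the J proteins had 3 higher and 9 lower of 24. Within the J proteins, class A had no call among 4 tested (limma; 1 at an unadjusted p under 0.05, and 0 with voom), class B had 1 higher and 2 lower of 5, and class C had 2 higher and 7 lower of 15. Hspd1 was higher among the 2 chaperonin genes. Neither of the 2 small heat shock genes tested nor Hsf1 was called by limma (0 at an unadjusted p under 0.05, and 0 with voom, which tested the small heat shock genes only). By place, 3 were higher and 7 lower of 27 tested in the cytosol and nucleus, 2 higher and 3 lower of 9 in the ER, and 1 higher and 2 lower of 6 in the mitochondrion. Beside these counts, 36.9% of all tested genes were called, 13.9% higher and 23.1% lower. No family or place was tested as a set.

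The summed level of all 65 genes made up 1.05, 1.59, 1.46 and 1.29% of all FPKM in Esrp1_KO replicates 1 to 4, against 1.32, 1.27, 1.34 and 1.16% in the WT replicates, and the groups overlapped. Hsp90aa1 alone was 60.9 to 74.04% of that sum in Esrp1_KO and 63.8 to 69.05% in WT. Without it the other 64 genes summed to 1295 to 1439 FPKM in Esrp1_KO and 1304 to 1421 FPKM in WT, again overlapping. The genes spanned a wide range of levels: 6 averaged at least 100 FPKM and 25 at least 10 FPKM, while 23 lay under 1 FPKM.

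**Figure D2:**
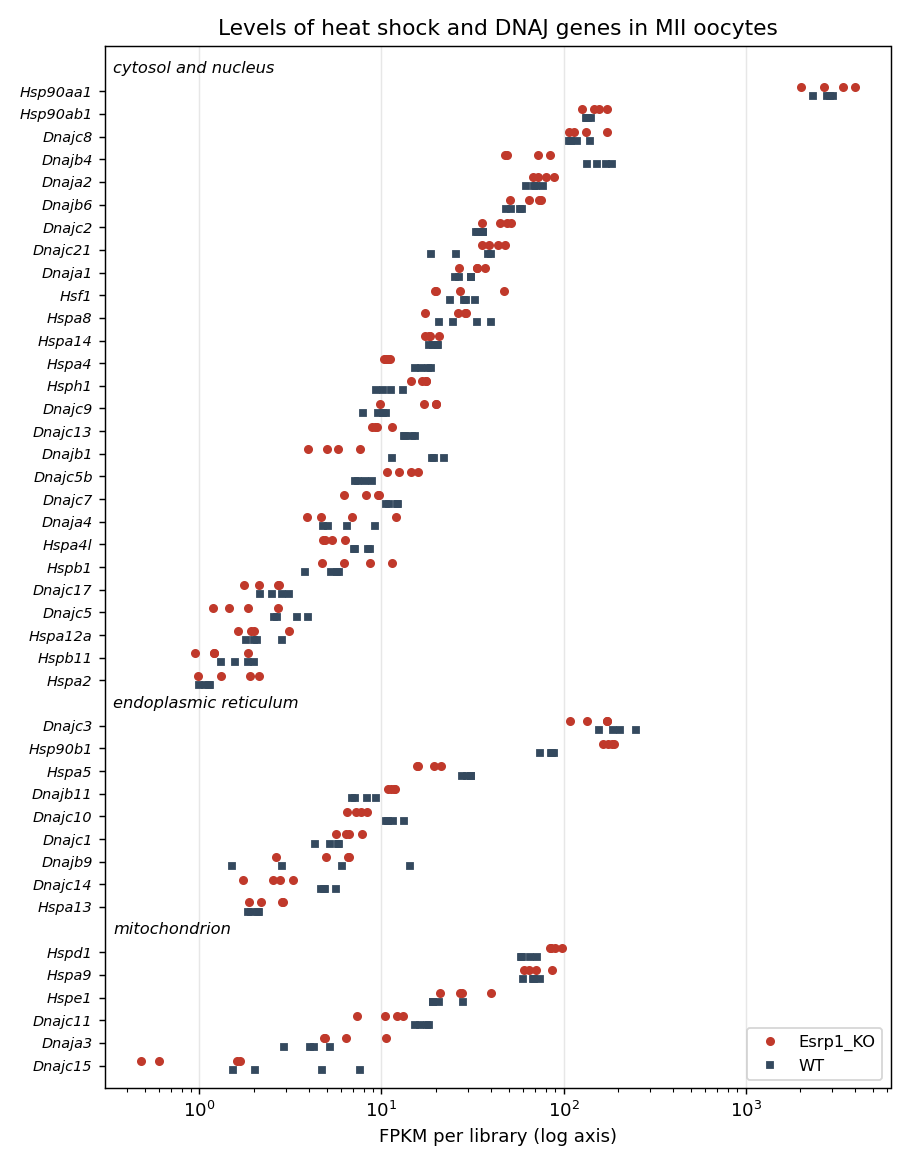
FPKM of the 42 tested chaperone genes in each library on a log axis, ordered by mean level within a compartment; red circles are the 4 Esrp1_KO libraries and dark squares the 4 WT libraries. Hsp90aa1 lies more than 10-fold above every other gene in both groups, and Dnajb4, Dnajb1, Hspa4, Hspa5 and Hsp90b1 are among the genes whose groups are separate.

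Of the transcription factors, Hsf1 (chromosome 15, 76477422 to 76501913, plus strand), the master regulator of the heat shock response, whose loss in mouse oocytes is known to lower HSP90 alpha, had 47.01, 19.7, 19.8 and 27.02 FPKM in the Esrp1_KO replicates, against 28.4, 23.8, 29.1 and 32.8 FPKM in the WT replicates. Esrp1_KO replicate 1 stood above all other libraries and the rest overlapped, and no difference was detected (log2 fold change -0.09, SE 0.25, limma adjusted p = 0.816, 95% interval -0.66 to 0.48). Hsf2, a factor of gametogenesis and development that partners HSF1, was lower in level and below the filter, at 0.869, 1.17, 1.199 and 1.27 FPKM in the Esrp1_KO replicates, against 0.339, 0.158, 0.366 and 0.313 FPKM in the WT replicates. All 4 Esrp1_KO libraries lay above all 4 WT libraries. In a fit with no filter on level, in which 12.2% of 24860 genes passed, the log2 fold change of Hsf2 was 0.72 (limma adjusted p = 0.00567).

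The heat-inducible HSP70 genes were all but absent. Hspa1b was listed at 0 in all Esrp1_KO libraries, against 0.0541, 0.214, 0.177 and 0.123 FPKM in the WT replicates, and Hspa1a had 0, 0.0135, 0 and 0 FPKM in the Esrp1_KO replicates, against 0.0128, 0, 0 and 0.0116 FPKM in the WT replicates. Of their 50-base stretches 62.3% in Hspa1b and 66.3% in Hspa1a occur in other genes, mainly in each other, so their reads cannot be told apart with confidence. A count of 0 allows up to 3 reads, which is 0.0331 to 0.043 FPKM for Hspa1b across the libraries, counting error only. Hspa1b passed in the fit with no filter (limma adjusted p = 0.0205) with all libraries of WT above those of Esrp1_KO, at 4 to 15 reads per WT library. Hspa2, the HSP70 of the male germ line, had 2.12, 0.987, 1.31 and 1.89 FPKM in the Esrp1_KO replicates, against 1.13, 1.07, 0.994 and 1.14 FPKM in the WT replicates. The groups overlapped and it was not called (log2 fold change 0.28, SE 0.16, limma adjusted p = 0.19).

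Hsp90aa1, the stress-inducible cytosolic HSP90 (chromosome 12, 110690605 to 110702728, minus strand), was the most abundant chaperone mRNA and ranked 15 among all genes in both groups. It had 2016, 3982, 3409.7 and 2705 FPKM in the Esrp1_KO replicates, against 2792, 2909, 3019.6 and 2341 FPKM in the WT replicates. The Esrp1_KO libraries spread on both sides of the WT range, with replicate 1 lowest and replicate 2 highest, and no difference was detected (log2 fold change 0.09, SE 0.20, limma adjusted p = 0.75, 95% interval -0.35 to 0.54). Of its 50-base stretches 47.5% occur in other genes, mainly processed copies; the copy Gm12346 was listed at 70.4 ± 18.95 FPKM in Esrp1_KO and 71.2 ± 4.53 FPKM in WT, so part of either value may belong to the other. Hsp90ab1, the constitutive partner, had 126, 174, 156 and 148 FPKM in the Esrp1_KO replicates, against 142, 135, 136 and 133 FPKM in the WT replicates. Its groups overlapped and it was not called (log2 fold change 0.13, SE 0.12, limma adjusted p = 0.427, 95% interval -0.14 to 0.40).

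Hspa8, the constitutive HSP70 of the cytosol, had 17.3, 28.6, 26.3 and 29.2 FPKM in the Esrp1_KO replicates, against 33.6, 39.8, 24.8 and 20.7 FPKM in the WT replicates. The groups overlapped (log2 fold change -0.21, SE 0.23, limma adjusted p = 0.516, 95% interval -0.72 to 0.31), and 39.4% of its 50-base stretches occur in other genes. Hspa14, which works on the ribosome with the J protein DNAJC2, averaged 18.6 ± 1.41 FPKM in Esrp1_KO and 19.5 ± 0.948 FPKM in WT (log2 fold change -0.07, SE 0.11, limma adjusted p = 0.673). Dnajc2 itself averaged 45.2 ± 7.08 FPKM in Esrp1_KO and 34.9 ± 1.49 FPKM in WT and missed the threshold (log2 fold change 0.35, SE 0.14, limma adjusted p = 0.0671). Without Esrp1_KO replicate 1, which lay within the WT range, its adjusted p was 0.0109 (limma). With all libraries under TMM scaling it was 0.0205 (limma).

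The exchange factors of the HSP110 family moved apart. Hspa4 (APG2, chromosome 11, 53259814 to 53300457, minus strand) had 11.2, 10.6, 10.3 and 10.8 FPKM in the Esrp1_KO replicates, against 18.04, 15.2, 16.6 and 18.7 FPKM in the WT replicates. All Esrp1_KO libraries lay below all WT libraries and close to each other (log2 fold change -0.63, SE 0.11, limma adjusted p = 0.00198). Its relative Hspa4l (APG1) was also lower, at 6.33, 4.92, 5.32 and 4.79 FPKM in the Esrp1_KO replicates, against 8.44, 7.05, 7.13 and 8.597 FPKM in the WT replicates, again with no overlap (log2 fold change -0.47, SE 0.13, limma adjusted p = 0.0161). Leaving out WT replicate 1 (adjusted p = 0.0531) or WT replicate 4 (0.0527) ended that call, as did TMM scaling (0.0597, limma throughout). Hsph1 (HSP105, chromosome 5, 149614287 to 149636376, minus strand) moved the other way, with 14.5, 17.6, 16.7 and 17.6 FPKM in the Esrp1_KO replicates, against 9.35, 11.3, 13.2 and 10.2 FPKM in the WT replicates. Every Esrp1_KO library stood above the WT range (log2 fold change 0.56, SE 0.13, limma adjusted p = 0.00938). The ratio of Hsph1 to Hspa4 within a library was 1.30, 1.66, 1.63 and 1.62 in the Esrp1_KO replicates and 0.518, 0.741, 0.796 and 0.544 in the WT replicates.

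On log2(FPKM + 1), the largest falls among the 42 tested chaperones were in 2 class B J proteins that deliver clients to cytosolic HSP70. Dnajb4 (HLJ1, chromosome 3, 152178511 to 152210302, minus strand) had 48.7, 47.4, 84.3 and 72.8 FPKM in the Esrp1_KO replicates, against 186, 135, 170.3 and 152 FPKM in the WT replicates. The highest Esrp1_KO library lay well below the lowest WT library (log2 fold change -1.37, SE 0.20, limma adjusted p = 0.000732). In WT it was the most abundant J protein mRNA of the cytosol, and in Esrp1_KO it came after Dnajc8, Dnaja2 and Dnajb6 in mean level. Dnajb1 (HSP40, chromosome 8, 83608193 to 83612653, plus strand), the J protein that heat shock induces in many cells, had 7.63, 3.95, 5.79 and 5.02 FPKM in the Esrp1_KO replicates, against 22.02, 19.5, 11.4 and 18.9 FPKM in the WT replicates. Its groups did not overlap either, with WT replicate 3 nearest to the Esrp1_KO libraries (log2 fold change -1.52, SE 0.23, limma adjusted p = 0.000754). Both passed in all 20 alternatives tried, as did Hsp90b1 and no other called chaperone. Dnajb6, which holds back aggregation of client proteins, was not called (66.1 ± 10.99 FPKM in Esrp1_KO and 54.02 ± 4.95 FPKM in WT; log2 fold change 0.27, SE 0.15, limma adjusted p = 0.17), and over 20% of its 50-base stretches occur in other genes. Without Esrp1_KO replicate 1 it passed (adjusted p = 0.033, limma). The 9 class B genes together summed to 121, 142, 184 and 161 FPKM in the Esrp1_KO replicates, against 284, 226, 253 and 229 FPKM in the WT replicates, and the groups did not overlap. Without Dnajb4 the other 8 summed to 88.6 ± 11.7 FPKM in Esrp1_KO and 87.01 ± 9.28 FPKM in WT, with overlap.

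**Figure D3:**
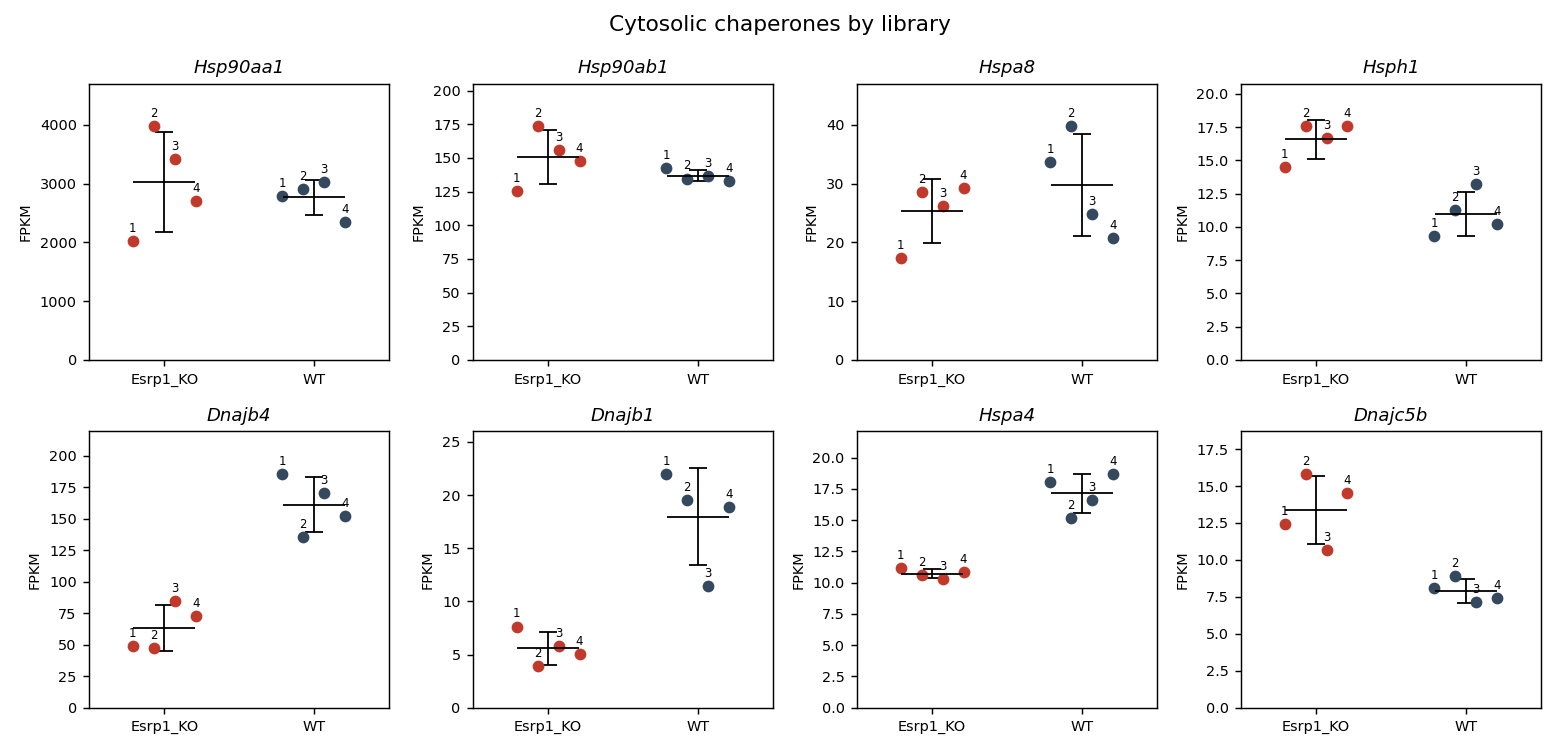
FPKM of 8 cytosolic chaperone genes on axes from 0, Esrp1_KO left and WT right, with replicate numbers beside the points and the mean with SD as a bar. Dnajb4, Dnajb1 and Hspa4 lie lower and Hsph1 and Dnajc5b higher in every Esrp1_KO library, while Hsp90aa1, Hsp90ab1 and Hspa8 overlap between the groups.

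No class A J protein, the type closest to bacterial DnaJ, passed the test in the deposited scale without a block. The mitochondrial Dnaja3, which passed under TMM scaling (limma adjusted p = 0.0375), is described with the mitochondrial genes. Dnaja2 had 89.1, 68.4, 72.6 and 80.4 FPKM in the Esrp1_KO replicates, against 77.1, 69.1, 62.03 and 70.2 FPKM in the WT replicates, with overlap (log2 fold change 0.15, SE 0.13, limma adjusted p = 0.375, 95% interval -0.13 to 0.43). Dnaja1 had 26.5, 33.4, 36.9 and 33.6 FPKM in the Esrp1_KO replicates, against 30.9, 26.6, 31.05 and 25.2 FPKM in the WT replicates, also with overlap (log2 fold change 0.19, SE 0.14, limma adjusted p = 0.312), and 20.6% of its 50-base stretches occur in other genes. Other genes on either strand cover 10.8% of its exon bases. Among them is Smu1 on the opposite strand (237 ± 15.2 FPKM in Esrp1_KO and 287 ± 22.2 FPKM in WT). Without strand, reads from that overlap cannot be told apart. Dnaja4 averaged 6.84 ± 3.64 FPKM in Esrp1_KO and 6.38 ± 2.03 FPKM in WT (log2 fold change 0.02, SE 0.30, limma adjusted p = 0.967). It overlaps Wdr61 on the opposite strand and shares 42.7% of its stretches, so without strand its reads cannot be told from those of Wdr61. Wdr61 was listed at 5.41 ± 0.375 FPKM in Esrp1_KO and 1.75 ± 0.191 FPKM in WT (log2 fold change 1.22, SE 0.11, limma adjusted p = 6.03e-05). The estimate for Dnaja4 itself is therefore uncertain.

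Class C J proteins carry the J domain on otherwise unlike proteins. Dnajc8, which associates with the spliceosome, was the most abundant of those in the cytosol and nucleus, at 108, 172, 134 and 114 FPKM in the Esrp1_KO replicates, against 110.5, 140.1, 119 and 107 FPKM in the WT replicates, with overlap (log2 fold change 0.13, SE 0.17, limma adjusted p = 0.576). Dnajc5b, the testis-enriched relative of cysteine string protein, had 12.4, 15.8, 10.7 and 14.5 FPKM in the Esrp1_KO replicates, against 8.13, 8.92, 7.14 and 7.44 FPKM in the WT replicates. All its Esrp1_KO libraries lay above all WT libraries (log2 fold change 0.68, SE 0.14, limma adjusted p = 0.00501). Dnajc5, cysteine string protein itself, moved the other way at a low level, 1.802 ± 0.6701 FPKM in Esrp1_KO and 3.16 ± 0.655 FPKM in WT (log2 fold change -0.59, SE 0.19, limma adjusted p = 0.0341). Its groups overlapped, with Esrp1_KO replicate 1 inside the WT range. The third relative, Dnajc5g, lay below the filter at 0.359, 0.0491, 0.128 and 0.0649 FPKM in the Esrp1_KO replicates, against 1.14, 1.83, 1.41 and 1.29 FPKM in the WT replicates, without overlap, and in the fit with no filter it was lower (log2 fold change -1.07, limma adjusted p = 0.00231). The call of Dnajc5 was lost without any 1 of Esrp1_KO replicates 2, 3 and 4 or WT replicates 1 and 4, with adjusted p between 0.0626 and 0.0886, and under TMM scaling (0.0628, limma).

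Dnajc13 (RME-8), a J protein of endosome sorting, had 8.91, 11.5, 9.46 and 9.24 FPKM in the Esrp1_KO replicates, against 13.4, 13.3, 14.8 and 15.2 FPKM in the WT replicates. The groups were separate (log2 fold change -0.50, SE 0.12, limma adjusted p = 0.00959). Dnajc7, which binds both HSP70 and HSP90, had 6.23, 9.71, 9.51 and 8.22 FPKM in the Esrp1_KO replicates, against 10.6, 12.4, 11.1 and 12.1 FPKM in the WT replicates, also with no overlap, but stood close to the threshold (log2 fold change -0.43, SE 0.15, limma adjusted p = 0.0445). It was lost under TMM scaling (adjusted p = 0.172) and without any 1 of 6 libraries, Esrp1_KO replicates 1 and 4 and all 4 WT replicates (0.0674 to 0.104, limma). Dnajc9, a chaperone of histones H3 and H4, had 9.76, 19.98, 17.1 and 19.9 FPKM in the Esrp1_KO replicates, against 9.52, 10.5, 10.1 and 7.95 FPKM in the WT replicates. Here 3 Esrp1_KO libraries stood above the WT range and replicate 1 lay inside it (log2 fold change 0.70, SE 0.21, limma adjusted p = 0.0272). This call was lost without any 1 of Esrp1_KO replicates 2, 3 and 4 or WT replicates 1, 3 and 4 (0.0501 to 0.0758, limma). Dnajc21, a factor of ribosome assembly, averaged 41.4 ± 5.31 FPKM in Esrp1_KO and 30.7 ± 10.3 FPKM in WT and was not called (log2 fold change 0.47, SE 0.23, limma adjusted p = 0.136). Dnajc17 of the nucleus averaged 2.33 ± 0.476 FPKM in Esrp1_KO and 2.65 ± 0.418 FPKM in WT (log2 fold change -0.14, SE 0.15, limma adjusted p = 0.507).

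The small heat shock proteins are holding chaperones that keep unfolded chains soluble. Hspb1 averaged 7.76 ± 2.91 FPKM in Esrp1_KO and 5.16 ± 0.942 FPKM in WT and missed the threshold (log2 fold change 0.46, SE 0.23, limma adjusted p = 0.151); without Esrp1_KO replicate 4 it passed (adjusted p = 0.0477, limma), and 50.1% of its 50-base stretches occur in other genes. Hspb11, better known as the ciliary transport protein IFT25, averaged 1.29 ± 0.385 FPKM in Esrp1_KO and 1.68 ± 0.298 FPKM in WT (log2 fold change -0.23, SE 0.15, limma adjusted p = 0.258). Hspb6 had 0.919 ± 0.326 FPKM in Esrp1_KO and 0.895 ± 0.267 FPKM in WT and was below the filter.

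In the ER Hsp90b1 and Hspa5 moved in opposite directions. Hsp90b1 (GRP94, chromosome 10, 86690209 to 86705509, minus strand) had 175, 165, 188 and 184 FPKM in the Esrp1_KO replicates, against 86.5, 74.2, 85.3 and 88.8 FPKM in the WT replicates. The groups were widely separate (log2 fold change 1.08, SE 0.11, limma adjusted p = 9.38e-05), and Esrp1_KO averaged 2.12 times WT. Other genes cover 15.7% of its exon bases, mainly the antisense 1810014B01Rik, which was listed at 0 to 0.241 FPKM across the libraries. Hspa5 (BiP, chromosome 2, 34771970 to 34777547, plus strand), the ER HSP70, had 15.9, 19.5, 15.6 and 21.3 FPKM in the Esrp1_KO replicates, against 29.6, 30.96, 31.1 and 27.8 FPKM in the WT replicates. Here every Esrp1_KO library lay below every WT library (log2 fold change -0.70, SE 0.13, limma adjusted p = 0.00246). The ratio of Hsp90b1 to Hspa5 within a library was 10.9, 8.44, 12.1 and 8.63 in the Esrp1_KO replicates and 2.93, 2.40, 2.75 and 3.19 in the WT replicates.

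The ER J proteins also divided. Dnajb11 (ERdj3), a soluble partner of BiP, had 10.8, 11.8, 11.3 and 11.7 FPKM in the Esrp1_KO replicates, against 9.29, 6.92, 8.299 and 7.11 FPKM in the WT replicates, with no overlap (log2 fold change 0.49, SE 0.12, limma adjusted p = 0.0117). Dnajc10 (ERdj5), which reduces disulfides in proteins bound for degradation, had 7.199, 8.29, 7.698 and 6.47 FPKM in the Esrp1_KO replicates, against 10.8, 13.2, 10.6 and 11.5 FPKM in the WT replicates. It was lower in all Esrp1_KO libraries than in any WT library (log2 fold change -0.58, SE 0.12, limma adjusted p = 0.00526). Dnajc14, a J protein of the ER membrane, was lower as well, at 1.73, 2.52, 3.25 and 2.79 FPKM in the Esrp1_KO replicates, against 4.68, 5.595, 4.89 and 4.83 FPKM in the WT replicates (log2 fold change -0.76, SE 0.15, limma adjusted p = 0.00356). Other genes, among them Sarnp on the same strand (12.8 ± 4.43 FPKM in Esrp1_KO and 17.2 ± 2.603 FPKM in WT) and Ormdl2 on the opposite one (2.74 ± 0.6495 FPKM in Esrp1_KO and 2.97 ± 1.03 FPKM in WT), cover 19.9% of its exon bases, and reads there cannot be assigned.

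Dnajc3 (P58IPK), a BiP partner known as an inhibitor of the kinase PERK, was the most abundant J protein mRNA in WT. It had 135, 109, 173 and 172 FPKM in the Esrp1_KO replicates, against 205, 157, 251 and 187 FPKM in the WT replicates. The groups overlapped and it missed the threshold (log2 fold change -0.44, SE 0.19, limma adjusted p = 0.096), but it was lower in Esrp1_KO in all 4 same-numbered pairs, and with the replicate number as a block its adjusted p was 0.0199 (limma). Dnajb9 (ERdj4) could not be placed: its libraries ran 2.64, 4.93, 6.52 and 6.65 FPKM in the Esrp1_KO replicates, against 14.3, 6.07, 2.84 and 1.52 FPKM in the WT replicates. WT replicate 1 was the highest by far and WT replicate 4 the lowest (log2 fold change 0.06, SE 0.49, limma adjusted p = 0.936, 95% interval -1.04 to 1.17). Dnajc1 (ERdj1) averaged 6.61 ± 0.903 FPKM in Esrp1_KO and 5.27 ± 0.702 FPKM in WT (log2 fold change 0.28, SE 0.14, limma adjusted p = 0.138) and passed under TMM scaling (0.0314, limma). Mllt10 on the opposite strand covers 6.43% of its exon bases (109 ± 9.86 FPKM in Esrp1_KO and 95.4 ± 2.43 FPKM in WT), and reads from that overlap cannot be assigned. Hspa13, an HSP70 of the microsomes, was not called either (log2 fold change 0.19, SE 0.13, limma adjusted p = 0.307).

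**Figure D4:**
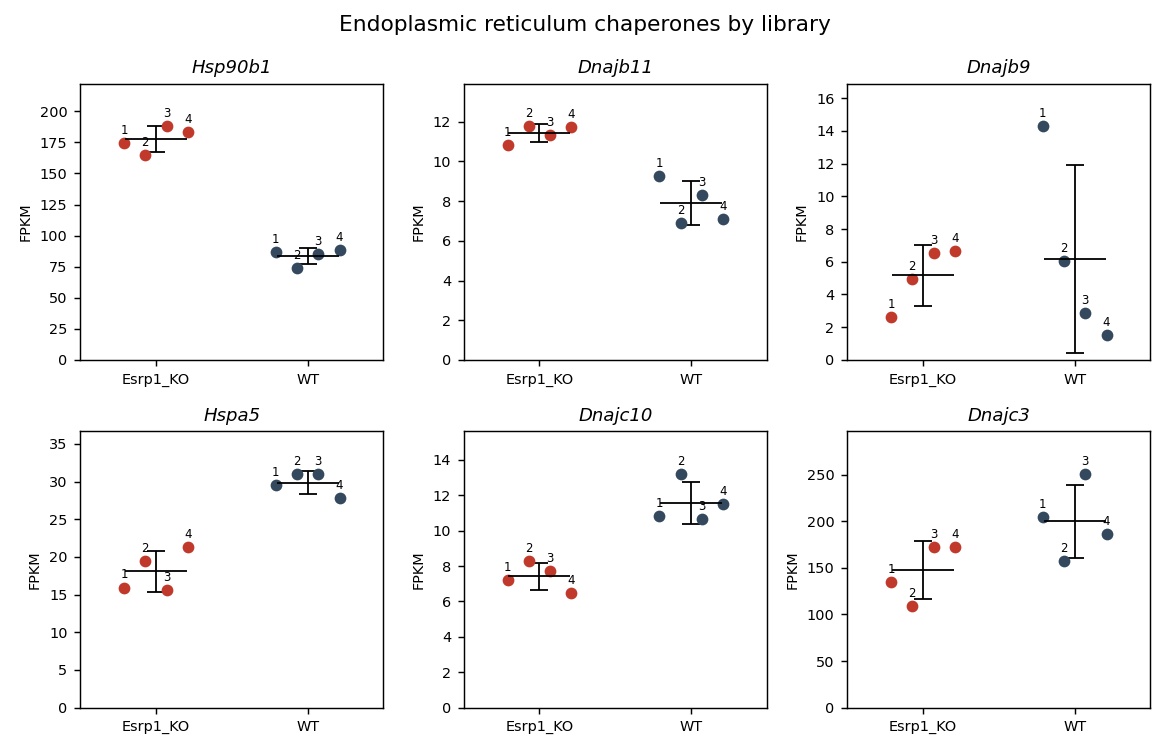
FPKM of 6 ER chaperone genes on axes from 0, Esrp1_KO left and WT right, with replicate numbers beside the points and the mean with SD as a bar. Hsp90b1 and Dnajb11 are higher and Hspa5 and Dnajc10 lower in every Esrp1_KO library, while Dnajb9 spans 1.52 to 14.3 FPKM within WT.

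In the mitochondrion Hspd1 rose, while Hspe1 and Hspa9 did not pass the test. Hspd1 (HSP60, chromosome 1, 55077835 to 55088243, minus strand), whose barrel folds matrix proteins, had 97.8, 85.8, 84.8 and 89.3 FPKM in the Esrp1_KO replicates, against 71.1, 59.4, 58.5 and 65.1 FPKM in the WT replicates. All Esrp1_KO libraries lay above all WT libraries (log2 fold change 0.49, SE 0.11, limma adjusted p = 0.00803). Of its 50-base stretches 42.1% occur in other genes; the copy Hspd1-ps3 was listed at 4.56 ± 0.475 FPKM in Esrp1_KO and 3.43 ± 0.541 FPKM in WT. Hspe1 (HSP10), the lid of the barrel, had 20.9, 40.1, 27.7 and 26.9 FPKM in the Esrp1_KO replicates, against 20.6, 27.9, 19.2 and 19.1 FPKM in the WT replicates. Its groups overlapped and it was not called (log2 fold change 0.38, SE 0.20, limma adjusted p = 0.171), although each Esrp1_KO library was above the WT library of the same number, and with the replicate block its adjusted p was 0.0471 (limma). Hspa9 (mortalin), the matrix HSP70, had 86.9, 64.8, 60.8 and 71.02 FPKM in the Esrp1_KO replicates, against 68.1, 59.8, 68.9 and 73.9 FPKM in the WT replicates. These overlapped (log2 fold change 0.06, SE 0.14, limma adjusted p = 0.783, 95% interval -0.25 to 0.36).

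Hspd1 and Hspe1 stand head to head on opposite strands, and the libraries do not mark strand, so reads where they overlap cannot be assigned; 22.8% of the 50-base stretches of Hspe1 occur in other genes. The ratio of Hspd1 to Hspe1 was 4.68, 2.14, 3.06 and 3.32 in the Esrp1_KO replicates and 3.45, 2.13, 3.04 and 3.41 in the WT replicates, and it overlapped.

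**Figure D5:**
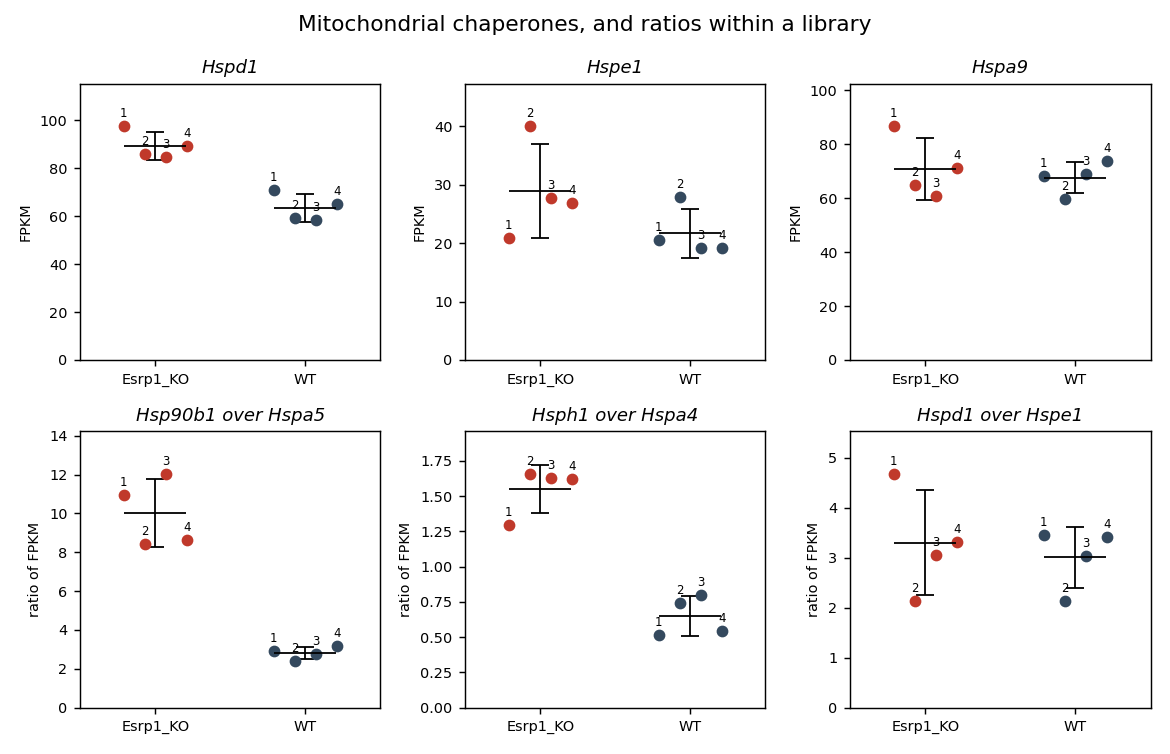
FPKM of 3 mitochondrial chaperone genes in the upper panels and ratios of FPKM within a library in the lower panels, on axes from 0, Esrp1_KO left and WT right, with replicate numbers beside the points and the mean with SD as a bar. Hspd1 and the ratios of Hsp90b1 to Hspa5 and of Hsph1 to Hspa4 are higher in every Esrp1_KO library, while Hspe1, Hspa9 and the ratio of Hspd1 to Hspe1 overlap.

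Among the mitochondrial J proteins, Dnajc11, which associates with the complex that shapes the cristae, had 7.298, 12.2, 13.2 and 10.5 FPKM in the Esrp1_KO replicates, against 16.2, 18.2, 15.2 and 17.9 FPKM in the WT replicates, with no overlap (log2 fold change -0.62, SE 0.17, limma adjusted p = 0.0185). Leaving out WT replicate 4 (adjusted p = 0.0509) or TMM scaling (0.0615, limma) ended the call. Dnaja3 (TID1), the partner of mortalin in the matrix, averaged 6.66 ± 2.71 FPKM in Esrp1_KO and 4.11 ± 0.956 FPKM in WT and missed the threshold (log2 fold change 0.54, SE 0.23, limma adjusted p = 0.0959). It was higher in Esrp1_KO in all 4 same-numbered pairs. Its adjusted p was 0.021 with the replicate block and 0.0375 under TMM scaling (limma). Dnajc15 (MCJ), a J protein of the import motor, had 0.477, 1.67, 1.62 and 0.6003 FPKM in the Esrp1_KO replicates, against 7.61, 4.69, 1.53 and 2.03 FPKM in the WT replicates. WT replicates 1 and 2 stood high, and the groups overlapped. The call (log2 fold change -1.13, SE 0.38, limma adjusted p = 0.0416) was lost without any 1 of Esrp1_KO replicates 1, 3 and 4 or WT replicates 1 and 2 (0.0508 to 0.102, limma), and without WT replicate 1 the log2 fold change was -0.80.

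The 23 genes under 1 FPKM comprised 13 of the cytosol and nucleus, 4 of the ER, 2 of the mitochondrion and the 4 left unassigned. In the fit with no filter, where 4.12% of all genes were higher and 8.07% lower, Hsf2 was higher and Dnajc5g, Hspa1b and Dnajb2 were lower. Dnajb2, a J protein of neurons, averaged 0.0261 ± 0.0230 FPKM in Esrp1_KO and 0.257 ± 0.146 FPKM in WT (limma adjusted p = 0.0484). Of these 23 genes 5 were listed at 0 in every Esrp1_KO library: Hspa1b, Dnajc12, Dnajb3, Hspb8 and Hspa12b. All but Hspa1b were also listed at 0 in 3 of the 4 WT libraries, with 18 reads of Dnajc12, 2 of Dnajb3 and 1 of Hspa12b in WT replicate 1, and 1 of Hspb8 in WT replicate 3.

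Genes that work with the chaperones were read from the same fit. Over all genes tested it called 36.9%, with 13.9% higher and 23.1% lower, which is the background for each list below. Of the 14 HSP90 co-chaperones tested 2 were higher and 2 lower. This split depended on the scaling. Under TMM scaling Rpap3, Ptges3, Chordc1 and Ppid also passed as higher (limma adjusted p = 0.019, 0.0321, 0.0357 and 0.0373). Ttc4, called lower in the deposited scale, did not pass under TMM scaling (0.0762, limma). Fkbp5, an immunophilin of steroid receptor complexes, had 16.9, 31.6, 20.7 and 17.2 FPKM in the Esrp1_KO replicates, against 10.3, 13.8, 12.4 and 9.63 FPKM in the WT replicates (log2 fold change 0.82, SE 0.21, limma adjusted p = 0.0117), and Ahsa1, which speeds HSP90 ATP hydrolysis, had 163, 142, 129.8 and 124 FPKM in the Esrp1_KO replicates, against 107, 94.4, 108 and 104 FPKM in the WT replicates (log2 fold change 0.43, SE 0.12, limma adjusted p = 0.0197). Stip1 (HOP), which links HSP70 to HSP90, was lower, at 22.5, 23.4, 23.6 and 20.3 FPKM in the Esrp1_KO replicates, against 43.3, 36.4, 31.7 and 27.3 FPKM in the WT replicates (log2 fold change -0.59, SE 0.15, limma adjusted p = 0.0128). The groups of Fkbp5, Ahsa1 and Stip1 did not overlap, while those of the other lower co-chaperone did.

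Of 5 nucleotide exchange factors tested 1 was higher and 2 were lower. Sil1, which serves BiP, averaged 9.99 ± 5.21 FPKM in Esrp1_KO and 3.76 ± 0.722 FPKM in WT (log2 fold change 1.09, SE 0.30, limma adjusted p = 0.0186). Its groups overlapped, with 4.69 to 16.7 FPKM in Esrp1_KO and 3.27 to 4.81 FPKM in WT. With no filter on level its adjusted p was 0.0673 (limma). Grpel1, which serves mortalin, averaged 3.22 ± 1.02 FPKM in Esrp1_KO and 6.59 ± 1.33 FPKM in WT (log2 fold change -0.86, SE 0.19, limma adjusted p = 0.00676), and Bag5, which serves cytosolic HSP70, averaged 1.83 ± 0.463 FPKM in Esrp1_KO and 3.103 ± 0.302 FPKM in WT (log2 fold change -0.55, SE 0.14, limma adjusted p = 0.0144). Of 12 ER folding genes tested 1 was higher, the lectin chaperone Calr, with 76.9, 104, 71.2 and 67.3 FPKM in the Esrp1_KO replicates, against 56.2, 52.8, 55.1 and 47.1 FPKM in the WT replicates and no overlap (log2 fold change 0.57, SE 0.15, limma adjusted p = 0.0151). Of 7 mitochondrial genes tested Pam16 of the import motor was higher (5.35 ± 0.916 FPKM in Esrp1_KO and 3.06 ± 0.223 FPKM in WT; log2 fold change 0.64, SE 0.13, limma adjusted p = 0.00475) and Trap1, the mitochondrial HSP90, was lower (5.68 ± 0.781 FPKM in Esrp1_KO and 8.11 ± 1.21 FPKM in WT; log2 fold change -0.44, SE 0.14, limma adjusted p = 0.0326). The groups of Trap1 overlapped, and it did not pass under TMM scaling (adjusted p = 0.128, limma).

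TRiC and prefoldin fold actin and tubulin in the cytosol. None of the 8 subunits of the TRiC chaperonin was called by limma (0 at an unadjusted p under 0.05, and 0 of 7 with voom). Of the 6 prefoldin subunits, which hand chains to TRiC, 2 were lower. Pfdn4 had 51.9, 92.1, 139.9 and 60.8 FPKM in the Esrp1_KO replicates, against 338, 398, 377 and 349 FPKM in the WT replicates, far below WT in every Esrp1_KO library (log2 fold change -2.18, SE 0.27, limma adjusted p = 0.000271), and Vbp1, the prefoldin subunit that binds the von Hippel-Lindau protein, had 10.4, 10.7, 13.8 and 12.3 FPKM in the Esrp1_KO replicates, against 17.7, 23.1, 18.3 and 17.4 FPKM in the WT replicates (log2 fold change -0.65, SE 0.14, limma adjusted p = 0.00526). Neither of the 2 tested J-domain genes outside the name rule was called by limma in the deposited scale (1 at an unadjusted p under 0.05, and 0 with voom). Under TMM scaling Sec63 passed as higher (limma adjusted p = 0.0443) and Hscb did not pass (0.0945).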

How the data were processed

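RNA of MII eggs was measured in 4 Esrp1_KO and 4 WT libraries. The values are FPKM per Ensembl gene as deposited by the authors, per the file headers. The build was GRCm38 per the submitters' processing notes, and for the aligner, the counter and the annotation nothing is stated by header or label. The members, gene lists, ratios and markers were chosen with earlier results of these data known.

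Symbols came from GENCODE M21. The 8021 genes averaging 1 FPKM or more entered limma 3.58.1 (R 4.3.3) as log2(FPKM + 1), with an intensity trend and no term but genotype; p-values were two-sided and Benjamini-Hochberg adjusted over these genes, at a threshold of 0.05. Means are given ± SD, with n = 4 per group. FPKM multiplied by exon length gave whole reads, within 0.02 of a read, for 22630 genes, 56 chaperones among them, and library totals from these. Voom ran on these reads as an alternative added after the data were seen. Reads are not independent molecules, so floors cover counting error only. On simulated data (8116 genes tested) 56 genes were changed 1.5-fold, 70 were changed 2-fold and 74 were changed 4-fold. The steps recovered 42.9%, 84.3% and 98.6% of these, with 8 false calls among 164. The simulated spread was modelled on the WT libraries alone. Over all genes tested the median coefficient of variation was 21.7% in Esrp1_KO and 16.9% in WT, so recovery may be overstated. The deposited libraries gave far more calls, 2961 among 8021 genes, and whether the simulated rates hold there was not tested.

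Chaperones named with values in every library were the fixed set Hsf1, Hsf2, Hspa1a, Hspa1b, Hspa2, Hspa8, Hsp90aa1, Hsp90ab1, Hsp90b1, Hspa5, Hspa9, Hspd1, Hspe1, Dnaja1 and Dnajb1 (Hspa1l of that set was not analysed here), those past the threshold without overlap, and the 8 with the highest mean. Of each companion list up to 3 called genes with the smallest p were named. Others, such as Dnajc9, Dnajc5, Dnajc5g, Dnajc15, Dnajb2, Dnajb9 and Hspb1, were chosen after their values were seen. So were the companion genes Rpap3, Ptges3, Chordc1, Ppid, Ttc4, Sec63 and Hscb. The promoter and protein features that had been planned were not analysed here. For each chaperone the share of 50-base stretches found in other M21 genes was computed; shares over 20% are printed for the chaperones named with values.

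Same-numbered libraries were checked for pairing. Their departures from the mean of each group correlated at 0.226 to 0.317 in all 4 pairs. Some unlike pairs lay in or above that range: Esrp1_KO replicate 1 gave 0.402 with WT replicate 4, and Esrp1_KO replicate 2 gave 0.252 with WT replicate 3. Since every same-numbered pair was over 0.1, the numbers, taken from the labels, were used as a block in an alternative, which is given beside a result where it changes the call. The labels do not say what a shared number marks, and these correlations do not settle whether the libraries are paired.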

Additional observations from a re-analysis of the deposited data

Results flagged for a closer look

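Within a group of 4 libraries, a value was picked out where its gap to the nearest other library exceeded Dixon's 95% critical share of the group's range. Of 58 groups examined over the named chaperones 2 met this, where chance picks about 1 in 20. Hspe1 stood at 27.9 FPKM in WT replicate 2, and the other WT libraries lay at 19.1 to 20.6 FPKM. Hspa1a stood at 0.0135 FPKM in Esrp1_KO replicate 2, which is 1 read, and was listed at 0 in the other Esrp1_KO libraries.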

How the results depend on the processing

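None of the 18 called chaperones changed direction in the 18 to 20 alternatives that gave it a value, and 3 of them (Hsp90b1, Dnajb1 and Dnajb4) passed the threshold in all 20. Leaving out 1 library gave 2383 to 2866 calls over all genes (883 to 1093 higher, 1477 to 1838 lower) and 13 to 18 among the chaperones (5 to 8 higher, 8 to 11 lower). With a minimum mean of 5 FPKM the fit called 1664 genes (668 higher, 996 lower), since fewer genes were tested. Replicates 1 and 4 alone called 675 genes higher, while 66.5% of the calls over all genes in that fit were lower. The same fit called 10 chaperones (3 higher, 7 lower). Replicates 2 and 3 alone called 1448 genes (569 higher, 879 lower) and 6 chaperones (3 higher, 3 lower); both fits hold fewer samples. The summed mitochondrial level had a log2 ratio of 0.22 in the deposited scale and 0.38 under TMM scaling, by construction of the scaling. With the replicate block 8 chaperones were higher and 13 lower; it changed the calls of Dnaja3, Dnajc3 and Hspe1 and no other named chaperone. Without moderation across genes 14 chaperones were called, and Dnajc5, Dnajc7, Dnajc9 and Dnajc15 were lost there and with no filter on level; the cause was not tested. Library weights (21 chaperones called) added Dnajb6, Dnajc2 and Hspe1. Low levels limit Hspa1a, Hspa1b and the other genes under 1 FPKM, which rest on few reads.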

Other observations

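The spread within groups was examined after the values were seen. Over the 42 tested chaperones the median coefficient of variation was 20.3% in Esrp1_KO and 11.3% in WT, and over all 8021 genes tested it was 21.7% in Esrp1_KO and 16.9% in WT. Esrp1_KO replicate 1 was the lowest library of its group for 20 of the 42 chaperones (47.6%), as for 34.7% of all genes tested, and the highest for 12 (28.6%), as for 32.5% of all genes. Hsp90aa1, Hsp90ab1, Hspa8, Hspe1, Dnajc9 and Dnajc11 were among those lowest there, and Hsf1, Dnaja3, Dnaja4, Hspd1 and Hspa9 among those highest there. These counts carry no test.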
